A study of Mus musculus with 6 samples.

Results

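The genes described are those of the cytosolic ribosomal proteins, the proteins that make up the small (40S) and large (60S) subunits of the ribosome outside mitochondria. They were taken by symbol, as every gene named Rps or Rpl followed by a number and at most 1 letter, together with Rpsa, Rplp0, Rplp1 and Rplp2. This rule, which used no measured value, gave 81 of the 35485 genes in the tables: 32 of the 40S subunit, 46 of the 60S subunit and 3 of the stalk, a flexible arm of the large subunit. RNA was sequenced from retinas of wild type C57BL/6 mice, 12 weeks old, 2 days after optic nerve crush (ONC) or a sham operation. In ONC the exposed nerve was crushed 2 mm behind the eye for 10 seconds, and in the sham group it was exposed but not crushed. Each group had 3 samples, each pooled from 6 retinas of 6 mice.

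Nearly every one of these proteins is present once in a ribosome, and cells make them in matched amounts. Many of their mRNAs begin with a run of pyrimidines, the terminal oligopyrimidine (TOP) tract, through which growth signals control their translation. Their mRNAs are short and abundant, and the mouse genome holds many processed pseudogenes, which are intronless copies of such mRNAs inserted elsewhere, so that a short read can match a gene and its copies equally well. Injury of the optic nerve cuts the axons of retinal ganglion cells, a small minority of the cells in the retina.

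The tables gave between 17343945 and 20358008 reads on exons per sample. The 6 ganglion cell markers were all lower in ONC (edgeR quasi-likelihood test, Benjamini-Hochberg adjusted p under 0.1), and their summed RPKM (a level corrected for exon length and for the number of mapped reads) was 242 to 250 in sham and 166 to 177 in ONC. Of 6 rod markers 2 were higher, and of 5 tested microglia and macrophage markers 1 was higher, with summed RPKM of 6.23 to 8.79 in sham and 11.1 to 13.9 in ONC. Lens markers summed to 5.07 to 28.7 in sham and 28.4 to 36.1 in ONC, with 1 of 3 higher, and red blood cell markers to 116 to 258 and 76.9 to 111, with 2 of 4 lower. Cone, Muller glia, neutrophil and pigment epithelium markers had no call, and the 3 proliferation markers were too low to test. The part of these cell types in the results that follow was not tested. In whole retina, fewer cells of a type and less RNA per cell cannot be told apart.

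Few ribosomal protein genes passed the test 2 days after ONC, and most lay close to their sham level. Together they took 1.60%, 1.58% and 1.55% of all exon reads in the 3 sham samples and 1.56%, 1.76% and 1.66% in the 3 ONC samples. The groups overlapped, because the first ONC sample lay within the sham range. Of the 81 genes, 78 passed the filter on low levels (a mean RPKM above 0.3 in at least 1 group). Their median log2 fold change was 0.036, beside 0.0099 over all 13670 genes tested. Fold changes were above 0 for 59 of the 78 genes (75.6%, against 52.3% of all genes), and 67 lay within 0.15 of 0. The genes share these 6 libraries, and the second ONC sample was the highest of the ONC samples for 60 of them, so the 59 genes are not 59 independent observations. Scaling to the total of gene reads, the way RPKM does, raised the median of all genes to 0.13 and that of the ribosomal protein genes to 0.16. With that scaling 26 of them were called higher and 0 lower by edgeR, and the direction of several small changes turned. The genes are short, with a median exon length of 693.5 bases against 2877 over all genes tested, and after a correction for length their median was 0.0012 with 39 of 78 above 0. On unique reads 52 were above 0.

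At an adjusted p under 0.1, 3 of the 78 genes were higher in ONC and 0 were lower by edgeR's quasi-likelihood test, where 2.38% of all genes tested were higher and 3.72% were lower. DESeq2 called 4 higher and 0 lower. At an unadjusted p under 0.05 there were 14 ribosomal protein genes (17.9%), in either direction, near the 16.7% of all genes. None also reached a 1.5-fold change, the study's second criterion for a differentially expressed gene, which 1.66% of all genes met together with the adjusted p. All 3 ONC samples exceeded the highest sham sample for 15 of the 78 genes and lay under the lowest for 2, against 11% and 10.8% of all genes.

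**Figure D1:**
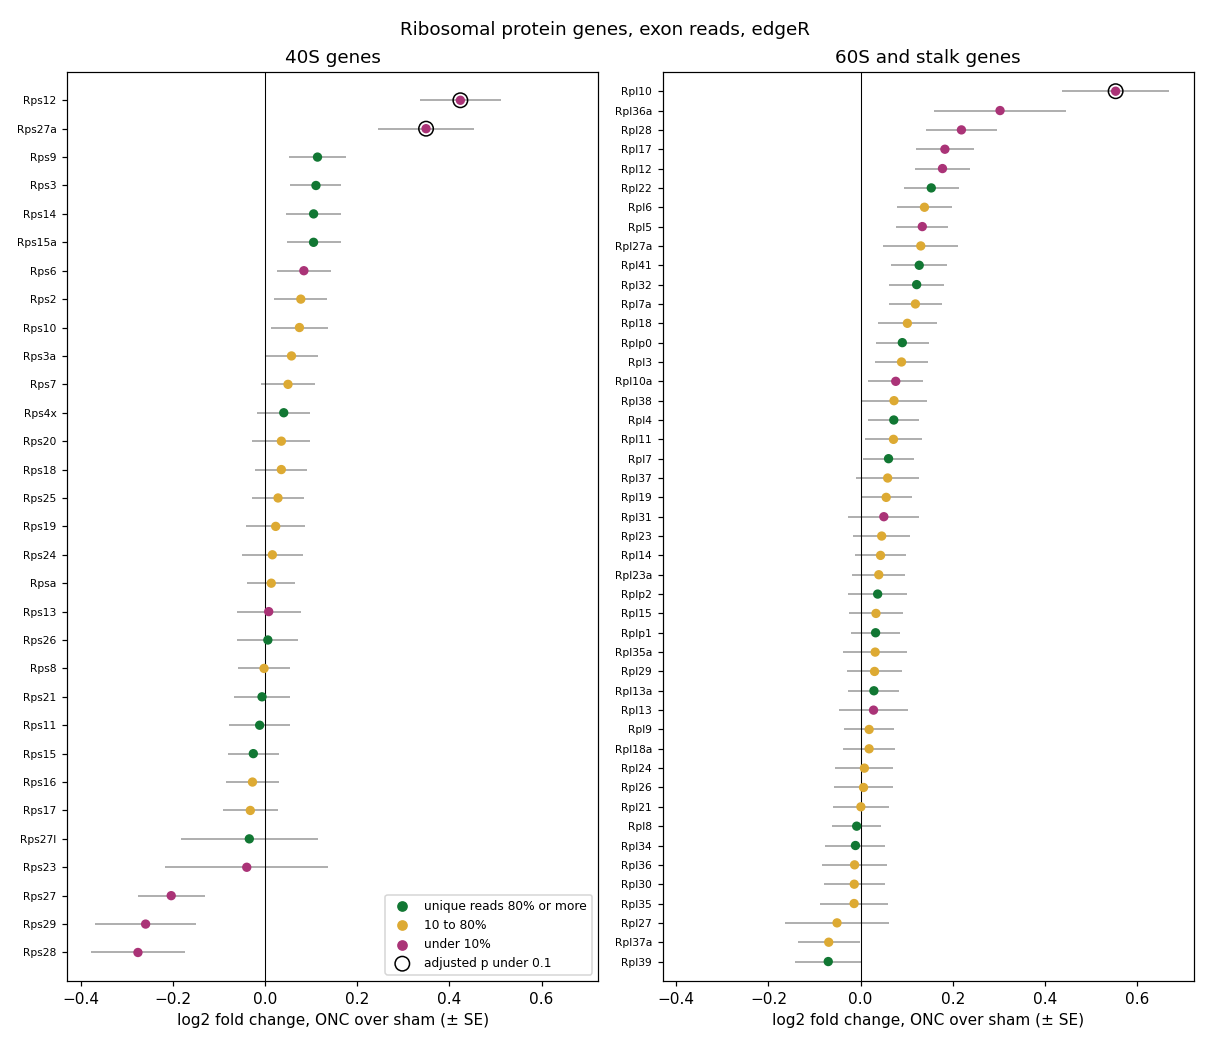
Log2 fold change of 77 of the 78 tested genes (x axis, ONC over sham, ± SE) for the 40S genes and for the 60S and stalk genes, coloured by the share of the gene's exon reads that mapped to 1 place; rings mark an adjusted p under 0.1. Most genes sit close to 0, and the 3 ringed genes and the lowest 3 have under 10% unique reads.

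The 3 genes called higher were Rpl10 (chrX:74270816-74273135), Rps12 (chr10:23785183-23787209) and Rps27a (chr11:29545842-29548040; coordinates as in the tables, which match GRCm38). Rpl10, a 60S protein near the peptidyl transferase centre that is added late in assembly, had 50.5, 42.1 and 33.3 CPM (exon reads scaled to a common library size with TMM, a trimmed mean of the ratios between samples) in sham and 54.5, 68.3 and 62.1 in ONC. All 3 ONC samples were above all 3 sham samples. Its level was 42.0 ± 8.56 in sham and 61.6 ± 6.90 in ONC (SD, n = 3), a log2 fold change of 0.55 ± 0.12 (SE, edgeR quasi-likelihood adjusted p = 0.00772).

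Rps12, a 40S protein, had 45.9, 46.9 and 45.6 CPM in sham and 53.8, 67.5 and 64.3 in ONC. The sham samples were almost level and the ONC samples all lay above them (log2 fold change 0.42 ± 0.088 SE, edgeR adjusted p = 0.00682). Rps27a encodes ubiquitin fused to a 40S protein, and had 80.8, 61.7 and 75.3 CPM in sham and 102, 99.7 and 76.1 in ONC. Here the groups overlapped, since the third ONC sample was below the first sham sample (log2 fold change 0.35 ± 0.10 SE, edgeR adjusted p = 0.0671). Its call was lost without sham 2 (adjusted p = 0.354), sham 3 (0.164) or ONC 2 (0.254), by edgeR in each case.

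By the length-corrected level of the reads assigned to them, these 3 genes were among the lower members of the group. Mean RPKM in sham was 39.2 for Rpl10, 65.7 for Rps12 and 65.2 for Rps27a. The median of the 78 genes was 188 and the quartiles were 138 and 259. Only 7.09%, 7.71% and 7.20% of the exon reads of these 3 genes mapped to 1 place. How reads with several equal matches were assigned is not given in the sources used here, and its part in these levels was not tested.

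**Figure D2:**
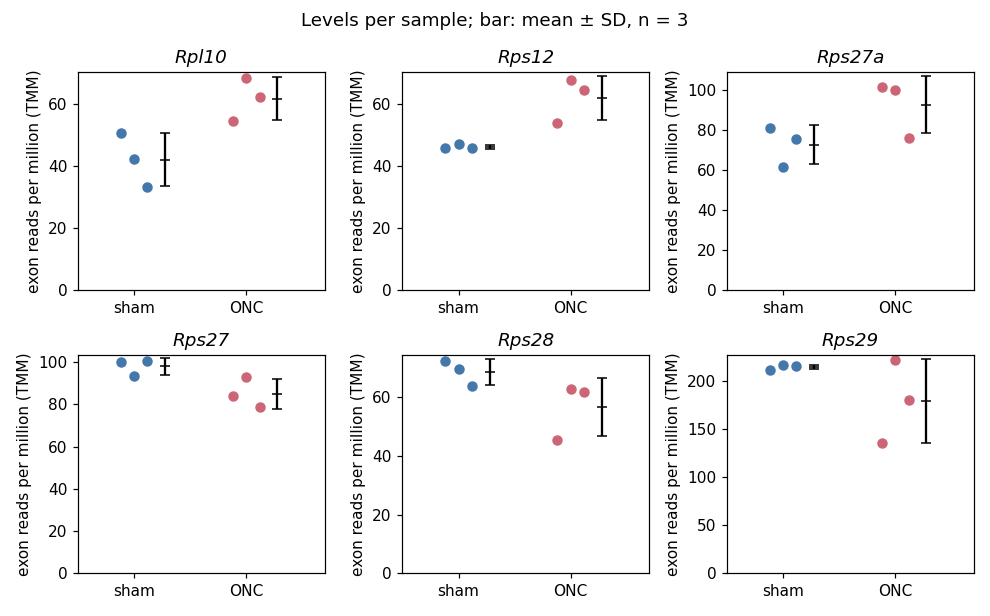
CPM of exon reads (y axis, TMM scaled, from 0) in each sham and ONC sample for the 3 genes called higher and the 3 with the lowest fold changes; points are samples and bars are mean ± SD (n = 3). The groups are apart for Rpl10, Rps12, Rps27 and Rps28 and overlap for Rps27a and Rps29.

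Among 40S genes the median log2 fold change was 0.019, with 21 of 32 above 0. Rpsa, a 40S protein also known as the laminin receptor, was at 0.013 ± 0.052 (SE) and Rps4x, an X-linked 40S protein, at 0.040 ± 0.057. Rps6, the 40S protein phosphorylated by S6 kinase downstream of mTOR, had 331, 316 and 308 CPM in sham and 320, 337 and 356 in ONC. The groups overlapped, with a log2 fold change of 0.084 ± 0.058 (edgeR adjusted p = 0.502).

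Rps15, the third most abundant of the genes per length, had an RPKM of 460, 435 and 435 in sham and 468, 484 and 472 in ONC. On TMM-scaled reads the groups overlapped (log2 fold change -0.026 ± 0.056). Rps27l, a p53-induced relative of Rps27 that differs from it in few residues, was the lowest tested gene per length, with a mean RPKM of 21.7 over the 6 samples (log2 fold change -0.034 ± 0.15).

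Among 60S genes the median log2 fold change was 0.050, with 35 of 43 above 0. Rpl5 and Rpl11, which with 5S rRNA form the particle that binds Mdm2 when ribosome assembly is disturbed, were at 0.13 ± 0.056 and 0.071 ± 0.061 (edgeR adjusted p = 0.228 and 0.597). Rpl5 was higher in every ONC sample than in every sham sample, and Rpl11 was not. Rpl22, whose reads were unique to it, had 154, 161 and 148 CPM in sham and 175, 174 and 166 in ONC. The groups did not overlap, but the change did not pass the test (0.15 ± 0.060, edgeR adjusted p = 0.190).

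Rpl3, a core 60S protein, was at 0.089 ± 0.057 and Rpl39, at the exit of the peptide tunnel, at -0.070 ± 0.071. Rpl9 and Rpl41 were among the most abundant per length, with a mean RPKM in sham of 482 and 353, and log2 fold changes of 0.019 ± 0.054 and 0.13 ± 0.061. Of the tissue-restricted paralogs, Rpl10l had no exon reads in any sample and Rpl39l had 0 to 2. Rpl3l had 0, 6 and 6 exon reads in sham and 0, 0 and 1 in ONC. These 3 did not pass the filter.

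None of the 3 stalk genes passed the test. Rplp1, the most abundant of all the genes per length, had an RPKM of 519, 516 and 459 in sham and 547, 563 and 551 in ONC. On TMM-scaled reads its log2 fold change was 0.033 ± 0.054, that of Rplp2 0.037 ± 0.065 and that of Rplp0 0.091 ± 0.058 (edgeR adjusted p = 0.812, 0.823 and 0.458).

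The reads on these genes were often not theirs alone. Over the 81 genes, 53.3% to 54.7% of exon reads per sample mapped to 1 place, against 94.6% to 95.0% over all genes. The share differed widely between members: 17 of the 78 had under 10% unique reads, 38 had 10% to 80% and 23 had 80% or more. Of the other 13592 genes tested, 0.692% had under 10% and 93.4% had 80% or more. The lowest were Rps29 (0.723%), Rps27 (0.803%), Rpl28 (1.18%), Rps6 (1.28%) and Rpl17 (1.45%), while Rpl22, Rpl8, Rps3 and Rps27l were at 100%.

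A search of the coding sequences of 80 of the genes against the mouse genome (NCBIM37) found 962 copies, each at least 90% identical over at least 90% of the coding sequence in 1 alignment, for 71 genes. Rpl21 had the most, at 78. The 19 tested genes with an identical copy had a median unique share of 6.08%, the 34 whose best copy was 99% to under 100% identical 58.4%, the 17 at 90% to under 99% 88.1%, and the 7 with no copy 100%. In the last set the lowest was Rpl24, at 14.7% without a copy that met these limits.

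Stretches of coding sequence of 2 genes show how alike gene and copy are. The mapping allowed 2 mismatches per read. Rps28 and its copy Gm10263 (chr13:73455302-73455511, plus strand, NCBIM37) differ at 1 base of 210, shown in capitals (G163A, the gene's base first, counted from the A of the start codon):
Rps28: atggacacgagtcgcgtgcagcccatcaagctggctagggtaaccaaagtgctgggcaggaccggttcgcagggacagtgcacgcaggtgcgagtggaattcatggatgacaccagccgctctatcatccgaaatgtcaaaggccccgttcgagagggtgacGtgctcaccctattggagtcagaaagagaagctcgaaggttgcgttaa
Gm10263: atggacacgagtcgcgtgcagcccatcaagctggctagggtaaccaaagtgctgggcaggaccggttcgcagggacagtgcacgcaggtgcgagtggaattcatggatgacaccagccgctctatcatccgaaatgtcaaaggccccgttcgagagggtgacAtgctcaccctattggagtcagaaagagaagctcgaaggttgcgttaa

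The first 120 coding bases of Rpl10 are the same in its copy Rpl10-ps3 (chr9:50152402-50153046, minus strand, NCBIM37), as is the rest of its coding sequence:
Rpl10: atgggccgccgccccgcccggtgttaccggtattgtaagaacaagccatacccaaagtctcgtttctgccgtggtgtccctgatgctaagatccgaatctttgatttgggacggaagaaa

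Among the 78 tested genes, all the large fold changes were in genes with few unique reads. The 8 genes with a log2 fold change beyond 0.2 in either direction were among the 17 with under 10% unique reads, as were the 3 called genes. Beside those 3 and Rps27, Rps28 and Rps29, they were Rpl36a (0.30 ± 0.14 SE, edgeR adjusted p = 0.297) and Rpl28 (0.22 ± 0.077, adjusted p = 0.135). Rpl36a was at 0.093 without ONC 2 and 0.18 without sham 3, and Rpl28 at 0.15 without sham 1 and 0.17 without ONC 2. Rps28 and Rps29 were at -0.14 and -0.094 without ONC 1, and Rps27 at -0.16 at the smallest with 1 sample left out. The place of these genes among the 8 thus rests on single samples. Rpl10, Rps12 and Rps27a stayed beyond 0.2 whichever sample was left out. Rpl28 passed without ONC 1 (0.21, edgeR adjusted p = 0.0824). Over those 17 genes fold changes ran from -0.28 to 0.55 with an SD of 0.23. Over the 38 intermediate genes they ran from -0.069 to 0.14 with an SD of 0.047, and over the 23 with mostly unique reads from -0.070 to 0.15 with an SD of 0.061. The median SE of a gene's fold change was 0.077, 0.061 and 0.060 in these classes. The classes were drawn after the values were seen, and the median level also differed, at 131, 202 and 242 RPKM in sham.

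**Figure D3:**
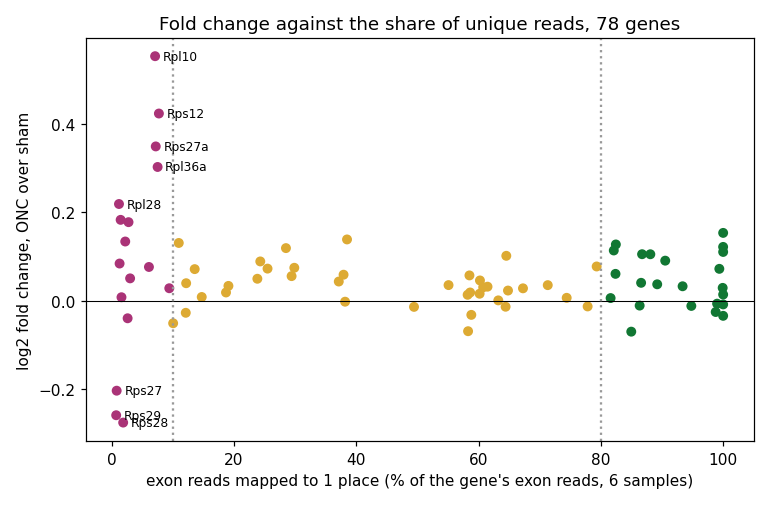
Log2 fold change (y axis, ONC over sham) of the 78 tested genes against the percentage of their exon reads that mapped to 1 place (x axis, all 6 samples); dotted lines mark 10% and 80%. The 8 genes beyond 0.2 are named and all lie left of the first line.

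With unique exon reads alone the median log2 fold change of the 78 genes was 0.020. Rpl10, Rps12 and Rps27a kept their direction, at 0.31 ± 0.30, 0.52 ± 0.24 and 0.44 ± 0.24 (SE), and none passed (edgeR adjusted p = 0.665, 0.279 and 0.367). Rpl10 then rested on 59, 79 and 36 reads in sham and 58, 90 and 102 in ONC, and the groups overlapped. The 2 genes that passed were Rpl10a, with 274, 203 and 230 unique reads in sham and 339, 425 and 525 in ONC, and Rpl12, with 39, 58 and 53 and then 121, 110 and 80. For both the ONC samples were all above the sham samples. Their log2 fold changes were 0.64 ± 0.15 and 0.84 ± 0.27 (edgeR adjusted p = 0.0159 and 0.0937), where 2.3% of all genes were called higher on unique reads. On all exon reads these genes, named here after their values were seen, were at 0.076 ± 0.059 and 0.18 ± 0.059 (edgeR adjusted p = 0.554 and 0.109). Among genes with 80% or more unique reads, total and unique fold changes differed by at most 0.033.

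The tables also list 478 of the 962 copies under names of their own, 401 of them with an exon length of 0, so that they carry no RPKM. Together these copies took 2958 to 5274 reads per sample, or 1.02% to 1.67% of the reads on the 81 genes. The 258 genes named as ribosomal protein pseudogenes took 970 to 2010 reads in sum, and only 2 could be tested. Rps6-ps4 had the most of them, at 102, 159 and 589 reads in sham and 975, 1005 and 132 in ONC, nearly all not unique. Its groups overlapped (log2 fold change 1.09 ± 0.53, edgeR adjusted p = 0.305). The 478 copies and these 258 genes overlap only in part, and Rps6-ps4 is not among the 478.

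The 3 genes with the lowest fold changes, Rps28, Rps29 and Rps27, were small 40S proteins, and none passed the test. Rps28 had 72.2, 69.6 and 63.7 CPM in sham and 45.2, 62.7 and 61.7 in ONC. Every ONC sample was below every sham sample, the first by far the lowest (log2 fold change -0.28 ± 0.10 SE, edgeR adjusted p = 0.156). The value was -0.14 without ONC 1 (adjusted p = 0.285), and -0.36 without ONC 2, which passed (adjusted p = 0.0933). Reads on its named copies, mainly Gm10263, moved the other way, at 292, 366 and 401 in sham and 923, 645 and 537 in ONC. Few were unique: on Gm10263 only 16, 20 and 32 in sham and 33, 35 and 32 in ONC.

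Rps29 had 3699, 3937 and 3654 exon reads in sham and 2682, 4550 and 3740 in ONC, and its copies, nearly all Gm14303, 602, 198 and 505 and then 1654, 482 and 939. The sample with the fewest reads on Rps29 had the most on the copies. Of the reads on Gm14303 only 6, 0 and 3 were unique in sham and 18, 6 and 8 in ONC. The fold change of the gene was -0.26 ± 0.11 on the log2 scale (edgeR adjusted p = 0.228). It was -0.094 without ONC 1 (adjusted p = 0.405), and -0.45 without ONC 2, which passed (adjusted p = 0.00394). Gm9846, an identical copy of the Rps27 coding sequence, had 119, 95 and 94 reads in sham and 123, 204 and 404 in ONC. Rps27 was at -0.20 ± 0.072 (edgeR adjusted p = 0.137), with a lowest sham value of 93.2 CPM and a highest ONC value of 92.7. It passed without ONC 1 (-0.19, adjusted p = 0.0920) or ONC 2 (-0.28, adjusted p = 0.0637), and under 3 of 20 alternatives in all. At the smallest it was at -0.16 with 1 sample left out. Gm9846 passed the test (1.02 ± 0.29, edgeR adjusted p = 0.0522), and its call was lost without ONC 3 (0.46, adjusted p = 0.462), sham 2 (0.261) or sham 3 (0.197). Only 2 of its 1039 reads over all samples were unique. These copies were named after their values were seen.

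**Figure D4:**
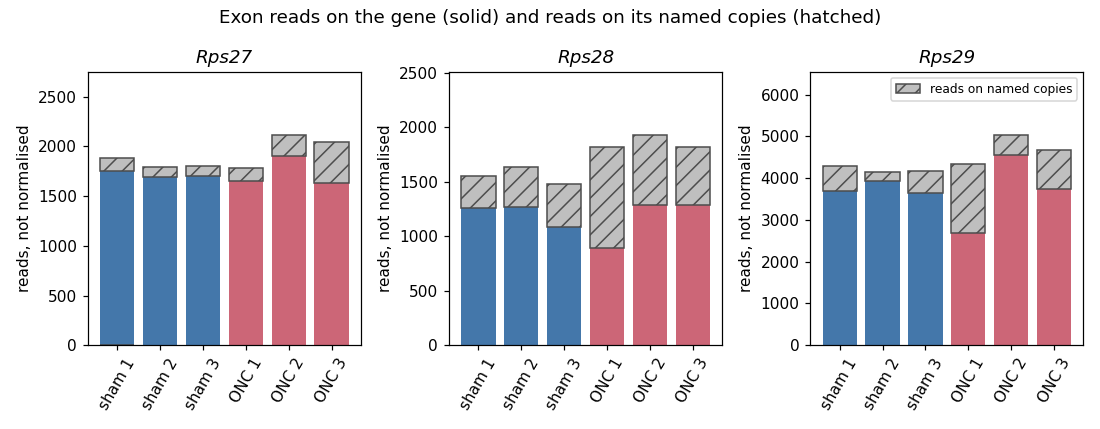
Reads per sample (y axis, not normalised) on the exons of Rps27, Rps28 and Rps29 (solid; blue sham, red ONC) and on their named copies (hatched). For Rps28 and Rps29 the first ONC sample has the fewest reads on the gene and the most on the copies.

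When the reads on named copies were added to the gene, Rps28, Rps29 and Rps27 were at 0.041 ± 0.065, -0.059 ± 0.062 and -0.099 ± 0.069 (SE). The same sum left Rpl10, Rps12 and Rps27a at 0.56 ± 0.12, 0.42 ± 0.088 and 0.34 ± 0.10, and these remained the 3 called (edgeR adjusted p = 0.00678, 0.00657 and 0.0701), where 2.39% of all genes were called higher. Their named copies held only 17 to 64, 12 to 19 and 23 to 35 reads per sample. Reads on copies that the tables do not name were not analysed here. Some named pseudogenes were also outside the sum, among them Rps6-ps4 for Rps6 and Rpl31-ps8 for Rpl31. Of the other genes beyond 0.2, Rpl28 went from 0.22 ± 0.077 to 0.18 ± 0.087 and Rpl36a from 0.30 ± 0.14 to 0.27 ± 0.14. Rpl17 went from 0.18 ± 0.064 to 0.079 ± 0.066. Its copy Gm10294, also named after its values were seen, had 216, 59 and 487 exon reads in sham and 68, 52 and 80 in ONC, none unique, and passed the test (-2.17 ± 0.45, edgeR adjusted p = 0.00747), though not without sham 3 (-1.25, adjusted p = 0.145).

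Reads within a gene but outside its exons were compared in the same way. For 74 of the 81 genes they could be tested, with a median of 39.5 reads per gene and sample. The median log2 fold change was 0.46, against 0.026 over 13391 genes, and 63 of the 74 were above 0 (85.1%, against 52.3%). The mitochondrial ribosomal protein genes had a median of 0.23 on intron reads, with 50 of 65 above 0 (76.9%), and the difference between the 2 groups of genes was not tested. Over the 81 genes these reads were 0.0665%, 0.0600% and 0.0411% of all intron reads in sham and 0.0691%, 0.106% and 0.0907% in ONC. All ONC samples were above all sham samples, the first only slightly. The share of gene reads on exons was 70.9% to 76.6% in sham and 78.5% to 80.4% in ONC, and its part in this result was not tested.

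On intron reads 3 genes were called higher and 0 lower, where 0.456% and 2.24% of all genes were called. At an unadjusted p under 0.05 there were 11 (14.9%), all higher, against 17.2% of all genes in either direction. Rpl10a had 258, 208 and 224 intron reads in sham and 317, 460 and 540 in ONC (0.94 ± 0.18 SE, edgeR adjusted p = 0.0445). Rps24, a 40S protein mutated in Diamond-Blackfan anaemia, had 231, 183 and 179 and then 287, 392 and 429 (0.91 ± 0.18, adjusted p = 0.0466), and Rpl30, a 60S protein that regulates its own splicing in yeast, had 91, 90 and 78 and then 127, 159 and 164 (0.82 ± 0.22, adjusted p = 0.0927). For all 3 the groups did not overlap. On exon reads Rps24 and Rpl30 were at 0.016 ± 0.066 and -0.014 ± 0.066. No gene was called without sham 2, ONC 2 or ONC 3, and 6 were without sham 1.

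**Figure D5:**
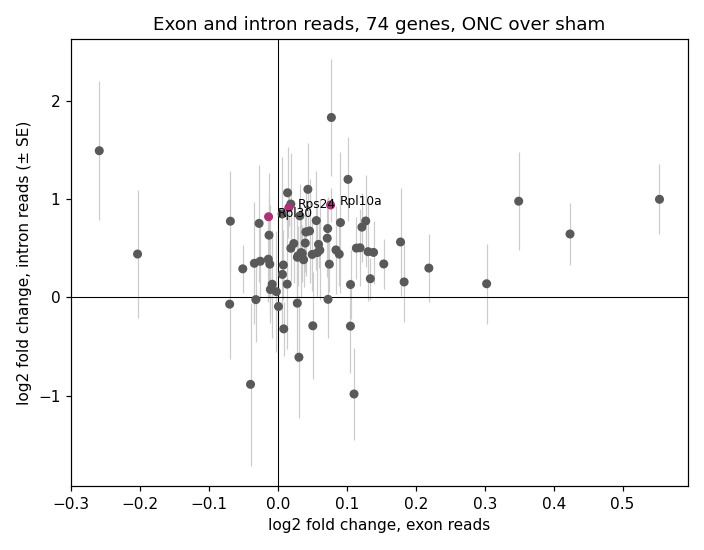
Log2 fold change on intron reads (y axis, ± SE) against that on exon reads (x axis) for 74 genes, ONC over sham; the 3 genes called on intron reads are named and coloured. Most points lie above 0 on the y axis while spreading closely about 0 on the x axis.

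The starts of the genes were read from RefSeq (GRCm38.p6) for the 60 genes with an entry. A C followed by 4 bases that are each C or T stood at the annotated start of 13 of them (21.7%), against 813 of 27025 genes (3.01%). Anywhere from 5 bases before to 10 from the start it stood in 28 of the 60 (46.7%), against 21.2% of all genes. Starts of 3 of the genes described above are shown, 15 bases before and 15 from the first base of the transcript, chosen because they hold the run, which is in capitals:
Rps6 (chr4:86857353-86857382, minus strand): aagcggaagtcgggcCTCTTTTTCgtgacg
Rps27 (chr3:90213634-90213663, minus strand): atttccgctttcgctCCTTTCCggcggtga
Rpl28 (chr7:4792950-4792979, plus strand): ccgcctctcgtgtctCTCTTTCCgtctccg
At the annotated starts of Rpl10, Rps12, Rps28, Rpl22, Rpl5 and Rpl11 the letters of this pattern were not found. A match describes these letters, and an annotated start can be off by some bases.

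Genes that work with the ribosomal proteins were counted in the same test, in which 2.38% of all genes were higher and 3.72% lower. Of 7 ribosomal or related genes that the symbol rule leaves out, 0 were called by edgeR. Rps19bp1, which is not itself a ribosomal protein gene, had the largest change of the 7 (-0.31 ± 0.13 log2, SE, edgeR adjusted p = 0.237). Fau, which encodes a ribosomal protein fused to a ubiquitin-like protein, was at 0.054 ± 0.060 (log2, SE). Of the paralogs outside the rule, Rpl22l1 was at -0.026 ± 0.078, Rpl7l1 at 0.16 ± 0.084 and Rpl36al at 0.22 ± 0.10. Unique reads were 3.11% of the exon reads of Fau, 70.8% for Rpl22l1, 100% for Rpl7l1 and 61.0% for Rpl36al.

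Of 76 mitochondrial ribosomal protein genes 2 were higher, a share near that of all genes, and 0 lower, with a median of 0.071: Mrpl9 (0.30 ± 0.083, edgeR adjusted p = 0.0512) and Mrpl24 (0.30 ± 0.092, adjusted p = 0.0778). Of 54 translation factors 3 were higher and 0 lower (median 0.056). They were Eif2s2, the beta subunit of the factor that brings initiator tRNA, Eif3c and Eif4b. Eif2s2 was at 22.4 ± 1.05 RPKM in sham and 33.0 ± 0.516 in ONC (SD, n = 3), with a log2 fold change of 0.44 ± 0.064 (SE, edgeR adjusted p = 0.000252). Of 79 ribosome biogenesis genes 0 were higher and 1 lower (median 0.083), Mdn1, a large ATPase of 60S maturation (-0.28 ± 0.065, edgeR adjusted p = 0.0162). Of 20 other TOP mRNA genes 1 was higher, again Eif4b (0.18 ± 0.058, adjusted p = 0.0953), and 0 were lower, with a median of 0.073. Under 20 alternative settings Eif2s2 was called in 20, Eif3c in 19, Mrpl24 and Mdn1 in 14, Mrpl9 in 13 and Eif4b in 10.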

How the data were processed

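Per the labels and the study's methods, RNA of 6 retinas per sample was sequenced on an Illumina HiSeq2000 and the authors mapped reads to mm9 with CLC Genomics Workbench, allowing 2 mismatches. How reads with several equal matches were assigned is not given in the sources used here. The deposited tables hold raw counts of total and unique exon and gene reads, and RPKM. Exon counts were compared with edgeR 4.0.16 (TMM, quasi-likelihood, Benjamini-Hochberg) over genes with a mean RPKM above 0.3 in a group; calls are adjusted p under 0.1. Intron reads are gene minus exon reads. Alternatives used limma 3.58.1 and DESeq2 1.42.0. Coding sequences were searched with blastn 2.17.0. Gene coordinates in the tables match GRCm38 rather than mm9, so no sequence was read by them. Scripts were tested on simulated data. P-values measure the spread between pooled samples.

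The text names genes that passed, the 4 largest and smallest changes, the 5 highest levels, the 5 lowest unique shares, a fixed list of paralogs and regulators, and up to 4 called genes per other list. Members and lists were chosen with earlier results of these data known. Some genes and a sequence are not reported here.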

Additional observations from a re-analysis of the deposited data

How the results depend on the processing

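The count of ribosomal protein genes higher in ONC was 3, and became 26 with division by all reads on genes, 6 with the sum of exon reads, 6 with no filter and 0 with limma on log2(RPKM + 0.1). The count lower was 0, and became 3 with no filter and 1 with the replicate block, with the length correction and with both. The count past 1.5-fold as well was 0, and became 1 with division by all reads, 1 with limma on log2(RPKM + 1) and 2 with unique reads. The median of 0.036 became 0.16 with division by all reads and with limma at both pseudocounts, and 0.0012 and 0.0013 with the length correction without and with the block. Leaving out 1 sample gave 2 to 12 higher (12 without ONC 1), 0 to 3 lower (3 without ONC 2), 0 to 1 past 1.5-fold, a median of 0.0044 to 0.062 and 0 to 6 calls on intron reads. Same-numbered samples were not paired by the rule that every correlation of deviations exceed 0.1 (-0.059, -0.025 and 0.007 over all genes, and 0.32, 0.44 and 0.034 over the ribosomal protein genes), and under the block 3 genes were higher and 1, Rps29, was lower (-0.29).

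Changes of sign were few and small. Division by all reads, limma + 0.1 and limma + 1 gave Rpl39 0.056, 0.055 and 0.054, Rps15 0.097, 0.098 and 0.098, Rps27l 0.084, 0.10 and 0.098, and Rpl22l1 0.097, 0.095 and 0.094. The length correction without and with the block gave Rpl9 -0.016 and -0.015, Rps4x -0.0028 and -0.0026, and Rpsa -0.034 and -0.034. The sum of exon reads gave Rpl22l1 0.00059, unique reads gave Fau -0.023, and adding reads on named copies, chosen after seeing the data, gave Rps28 0.041. Leaving out 1 sample gave ranges of -0.13 to 0.0025 for Rpl39, -0.014 to 0.044 for Rpl9, -0.060 to 0.0050 for Rps15, -0.12 to 0.13 for Rps27l, -0.085 to 0.011 for Rpl22l1, -1.26e-05 to 0.079 for Rplp2, -0.0084 to 0.061 for Rps4x and -0.0024 to 0.028 for Rpsa. Rpl10 and Rps12 were called under 18 of 20 alternatives and Rps27a under 13 of 20. The causes were not tested.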
